A study of Solenopsis invicta with 3 samples.

Results

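The *SiOBP12* entry (SINVm1_gene_02111) is an odorant-binding protein gene that the study places in the social supergene of the fire ant *Solenopsis invicta*. It was chosen by its identifier and is 1 of 15589 SINVm1_gene entries of the official gene set, within a mapping reference of 19703 entries. The gene was picked for description with its pattern already known, so its values are given without a test. Antennal RNA of foraging workers was sequenced in 3 pooled libraries. Workers of polygyne colonies gave the libraries P_Bb (*SB/Sb* genotype) and P_BB (*SB/SB*), and workers of monogyne colonies gave M_BB (also *SB/SB*). Each library mixed amplified cDNA of 4 colonies. P_Bb and P_BB came from the same polygyne colonies and M_BB from other, monogyne ones, so social form and colony cannot be told apart. No strain, treatment or age was given for any class, and genotype was assigned by the study from a marker gene in the supergene, worker by worker. No class was replicated, and every interval below covers counting error in that library only. The intervals treat reads as independent, so amplification may make them too narrow.

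Odorant-binding proteins are small secreted proteins of the fluid that fills the sensory hairs of insect antennae. They bind hydrophobic odorants that enter through pores of the cuticle and carry them to receptors on sensory neurons, and many are also made outside the antennae. Monogyne colonies keep a single queen and polygyne colonies keep several, and the choice is inherited with the supergene, a region passed on as a unit in the variants *SB* and *Sb*. *Sb* occurs only in polygyne colonies. The study describes a duplicate of *SiOBP12* in *Sb* that *SB* lacks. By its account the duplicate has an intact reading frame, whereas both alleles of *SiOBP12* appeared to be nonfunctional. It names an early stop codon in the *SB* allele and an insertion that shifts the frame in the *Sb* allele. The study attributes the higher *SB/Sb* antennal expression to the duplicate, not to the *SB* or *Sb* allele of *SiOBP12*. A ratio of P_Bb to an *SB/SB* library may therefore compare different copies, which was not tested here. The gene is given under 1 identifier, and reads of its alleles and copies that mapped there cannot be told apart in the values below. How well reads of a diverged copy mapped to this entry was not tested.

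The libraries held between 3351500 and 3948464 expected counts, that is reads as RSEM assigned them to entries. Odorant receptor models (SiOR) were used to check the tissue. Of the 473 receptor entries, 418 reached a TPM of 1 (transcript abundance scaled for length and depth) in P_Bb, against 428 in P_BB and 415 in M_BB. The most abundant receptor entry, SiOR1_co, had 468 TPM in P_Bb, against 656 TPM in P_BB and 657 TPM in M_BB.

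*SiOBP12* was read 257 times in P_Bb, against 8 times in P_BB and 16 times in M_BB. Exact Poisson 95% intervals of these counts ran from 227 to 290 reads in P_Bb, from 3.45 to 15.8 reads in P_BB and from 9.15 to 26.0 reads in M_BB. The P_Bb interval lay far above the others, and the intervals of the *SB/SB* libraries overlapped. All 3 libraries were above the floor of 3 counts, which corresponds to between 1.64 and 1.91 TPM for an entry of this length. Detection in both *SB/SB* libraries therefore rested on few reads but not on the minimum. In bulk antennae, fewer cells that make a transcript and less RNA per cell cannot be told apart.

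**Figure D1:**
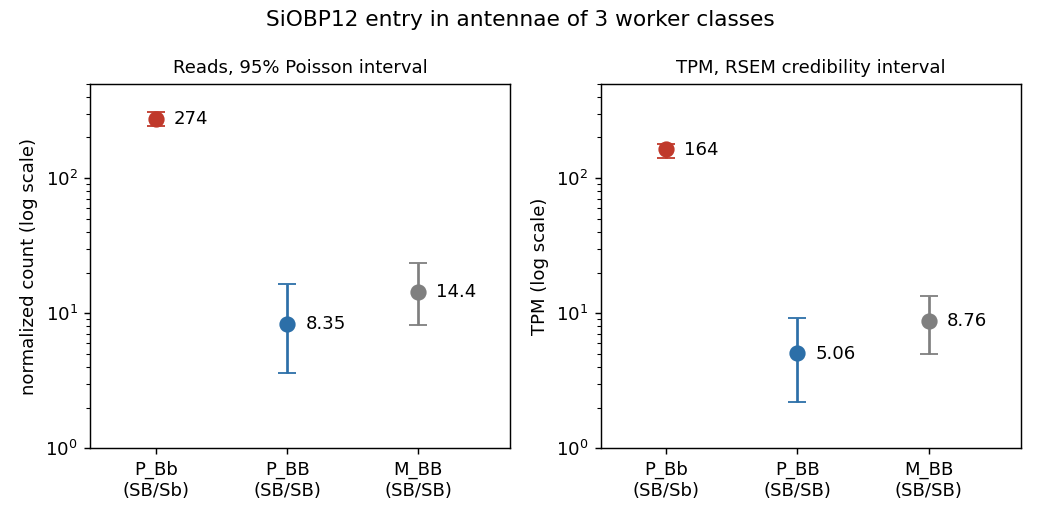
Levels of the *SiOBP12* entry (SINVm1_gene_02111) in P_Bb, P_BB and M_BB antennae, 1 library each, on log axes. The left panel shows normalized counts with Poisson 95% intervals and the right panel TPM with the credibility interval given by RSEM, and in both P_Bb (274 normalized counts, 164 TPM) stands clear of P_BB and M_BB, whose intervals overlap.

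To set the libraries on 1 scale, each count was divided by its library's size factor, taken from the upper quartile (0.938 for P_Bb, 0.958 for P_BB, 1.11 for M_BB). *SiOBP12* then stood at 274 normalized counts in P_Bb, against 8.35 in P_BB and 14.4 in M_BB. Within the polygyne colonies, where the classes differ in genotype, P_Bb was 32.8-fold above P_BB (Clopper-Pearson 95% interval 16.4 to 76.9). Of 9260 entries averaging 10 or more normalized counts, 1.64% were at least 2-fold higher in P_Bb than in P_BB and 3.01% differed by that much in either direction. P_Bb was 19.1-fold above M_BB (11.5 to 33.9), a comparison across genotype, social form and colony, in which 2.13% of entries were at least 2-fold higher in P_Bb and 4.38% differed in either direction. Between the *SB/SB* classes, P_BB was 0.581 times M_BB, with an interval from 0.215 to 1.44 that includes 1. In that comparison 1.81% of entries were at least 2-fold higher in P_BB, 2.33% were lower and 4.15% differed in either direction. At 8 and 16 reads a difference in *SiOBP12* between P_BB and M_BB was not detected, and counting error left ratios anywhere within that interval possible. The order of the levels was thus P_Bb first, with P_BB and M_BB not separated by their counting error.

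The levels were then set per transcript length, to compare the gene with others. The entry is 615 bases long, against a median of 831 bases for SINVm1_gene entries. *SiOBP12* had 164 TPM in P_Bb, against 5.06 TPM in P_BB and 8.76 TPM in M_BB. The credibility intervals that RSEM wrote for TPM were 141 to 180 in P_Bb, against 2.21 to 9.27 in P_BB and 5.00 to 13.5 in M_BB, around posterior means of 160.3, 5.56 and 9.10. Over the detected SINVm1_gene entries (those with a TPM above 0), the median TPM was 18.6 in P_Bb, against 18.5 in P_BB and 18.6 in M_BB. *SiOBP12* was therefore 8.79 times the median entry in P_Bb, against 0.274 times in P_BB and 0.470 times in M_BB. It thus lay above the median detected SINVm1_gene entry in the *SB/Sb* library and below it in both *SB/SB* libraries.

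By TPM, *SiOBP12* ranked 890 of 15589 SINVm1_gene entries in P_Bb, against 7531 in P_BB and 6760 in M_BB. In P_Bb this was the top 5.71% of all entries and the top 8.52% of the 10444 detected ones. In the *SB/SB* libraries it lay at 72.0% of the detected entries in P_BB and at 64.1% in M_BB, counted from the highest. Moving the count to the bounds of its Poisson interval gave ranks of 781 to 1028 in P_Bb, against 6458 to 8603 in P_BB and 5877 to 7632 in M_BB. The P_Bb range did not meet the others, and the P_BB and M_BB ranges overlapped. The gene stood 6641 places higher in P_Bb than in P_BB, where the median change of place in either direction over 7897 compared SINVm1_gene entries was 200. A larger climb was seen for 1 entry, SINVm1_gene_00897. Against M_BB the gene stood 5870 places higher in P_Bb, and the 4 entries with a larger climb were SINVm1_gene_10898, SINVm1_gene_00897, SINVm1_gene_10721 and SINVm1_gene_05175. In SINVm1_gene_10898 and SINVm1_gene_00897 the count had a posterior standard deviation of 5.56 to 11.92 reads, against at most 0.73 reads in *SiOBP12*. SINVm1_gene_10898 and SINVm1_gene_10721 were named after their values were seen.

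**Figure D2:**
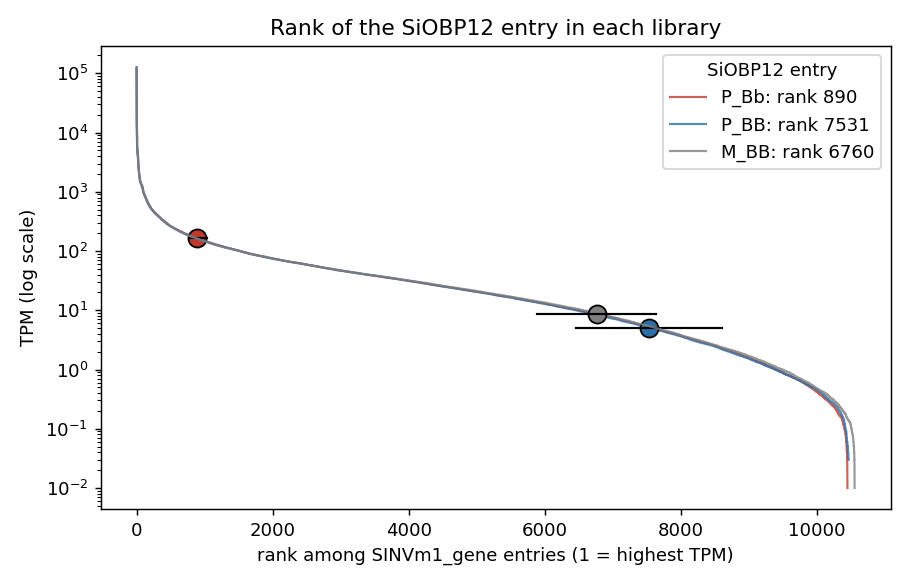
TPM (log scale) of all detected SINVm1_gene entries by rank in P_Bb, P_BB and M_BB, 1 curve per library. Circles mark the *SiOBP12* entry at rank 890 in P_Bb, against 7531 in P_BB and 6760 in M_BB, and black bars give the ranks at the bounds of the Poisson 95% interval of its count, while the 3 curves nearly coincide.

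Entries next to *SiOBP12* in one library showed how its level compared in the others. In P_Bb the entries directly above and below it were SINVm1_gene_05812 and SINVm1_gene_09429. SINVm1_gene_05812 had 163.89 TPM in P_Bb, against 163.18 TPM in P_BB and 157.33 TPM in M_BB, and SINVm1_gene_09429 had 163.74, 152.35 and 147.01 TPM in that order. Both kept nearly the same level in each class, where *SiOBP12* did not. In P_BB the neighbours were SINVm1_gene_07117, with 7.22 TPM in P_Bb, against 5.07 TPM in P_BB and 5.59 TPM in M_BB, and SINVm1_gene_02712, with 4.48, 5.06 and 4.82 TPM. In M_BB they were SINVm1_gene_02266, with 5.44 TPM in P_Bb, against 3.46 TPM in P_BB and 8.80 TPM in M_BB, and SINVm1_gene_05276. The last has the same length as *SiOBP12* and the same 16 reads in M_BB, but was read 19 times in P_Bb and 17 times in P_BB. None of the 4 neighbours from the *SB/SB* libraries exceeded 12.11 TPM in P_Bb.

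RSEM divides reads that fit several entries, and its posterior standard deviation of the count shows how uncertain that division was. For *SiOBP12* the posterior standard deviation was 0.73 reads in P_Bb and 0 in P_BB and M_BB, and the posterior mean counts were 257.02, 8 and 16. The division of reads was thus nearly certain for this entry within the reference used. A standard deviation of 0 was common, at 57.4% of compared SINVm1_gene entries in P_Bb, against 59.0% in P_BB and 55.7% in M_BB. This measure says nothing of reads that found no place in the reference, nor of which allele or copy a read came from.

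The distance of *SiOBP12* from the *SB/SB* libraries was placed among all genes by the ratio of P_Bb to the nearer of them, on the scale log2(normalized count + 1). The log2 ratio was 4.16, second among the 7897 compared SINVm1_gene entries and also second among all 9260 entries. At least 2-fold above both other libraries in P_Bb were 50 entries, 0.54% of those compared. The entry with a larger ratio, SINVm1_gene_00897, had 34.7 expected counts in P_Bb and 0 in both P_BB and M_BB. Its posterior standard deviations were 11.03 reads in P_Bb, against 5.56 in P_BB and 9.58 in M_BB, and its posterior mean counts were 23.75, 8.68 and 13.15. With posterior mean counts its P_Bb to nearer library ratio was 2.05-fold, and *SiOBP12*, at 17.9-fold on the same scale, stood first among SINVm1_gene entries. The division of reads thus decided which of them stood first, and the value of *SiOBP12* itself did not move with it.

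**Figure D3:**
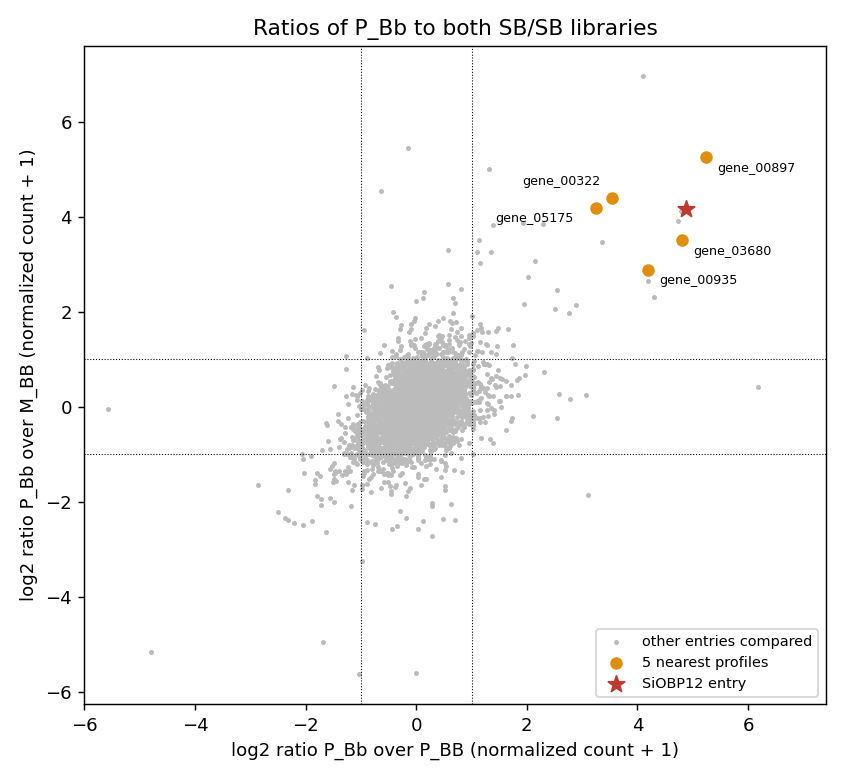
Log2 ratios of P_Bb to P_BB (horizontal) and of P_Bb to M_BB (vertical), on normalized counts plus 1, for the 9260 entries compared, each a point. Dotted lines mark 2-fold, the star marks *SiOBP12* at 4.88 and 4.16, and the 5 orange points are the SINVm1_gene entries with the nearest profile. Their place in the upper right corner with it follows from that choice. Both axes share the P_Bb library.

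The entries whose profile over the 3 libraries was most like that of *SiOBP12* were found by Euclidean distance, with each log2 profile centred on its own mean. With 3 libraries this is a coarse measure, and it describes likeness in these pools only. The nearest was SINVm1_gene_03680, at a distance of 0.51. It stood at 173 normalized counts in P_Bb, against 5.22 in P_BB and 14.4 in M_BB. P_Bb was 33.1-fold above P_BB (95% interval 13.9 to 103) and 12.0-fold above M_BB (7.18 to 21.5). Both genes were thus far higher in P_Bb than in either *SB/SB* library, a likeness for which SINVm1_gene_03680 was chosen. It is shorter, at 249 bases, and per length its levels were higher than those of *SiOBP12* in each library, at 546 TPM in P_Bb, against 16.2 TPM in P_BB and 44.6 TPM in M_BB.

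The next entries by distance were SINVm1_gene_00897 (0.78), SINVm1_gene_00935 (0.90), SINVm1_gene_00322 (1.198) and SINVm1_gene_05175 (1.34). With posterior mean counts SINVm1_gene_00897 was no longer among the 5 nearest, and the other 4 remained. SINVm1_gene_00935, which the study annotates as a nuclease of a transposable element, stood at 57.3 normalized counts in P_Bb, against 2.18 in P_BB and 6.89 in M_BB. Its posterior standard deviations were 4.13 reads in P_Bb, against 2.24 in P_BB and 2.45 in M_BB, so its low counts were less certain than those of *SiOBP12*. SINVm1_gene_00322 stood at 96.0 normalized counts in P_Bb, against 7.30 in P_BB and 3.59 in M_BB. SINVm1_gene_05175, annotated by the study as an NADH dehydrogenase and placed by it in the supergene, stood at 148 normalized counts in P_Bb, against 14.6 in P_BB and 7.19 in M_BB. In SINVm1_gene_00322 and SINVm1_gene_05175 P_BB was the higher of the *SB/SB* libraries, whereas in *SiOBP12*, SINVm1_gene_03680 and SINVm1_gene_00935 M_BB was. In each of these 5 entries the interval of the P_BB to M_BB ratio included 1. SINVm1_gene_00897 was at 0 in both libraries and gave no ratio. The study already lists SINVm1_gene_00935, SINVm1_gene_00322 and SINVm1_gene_05175 as higher in *SB/Sb*, a list not independent of these libraries.

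**Figure D4:**
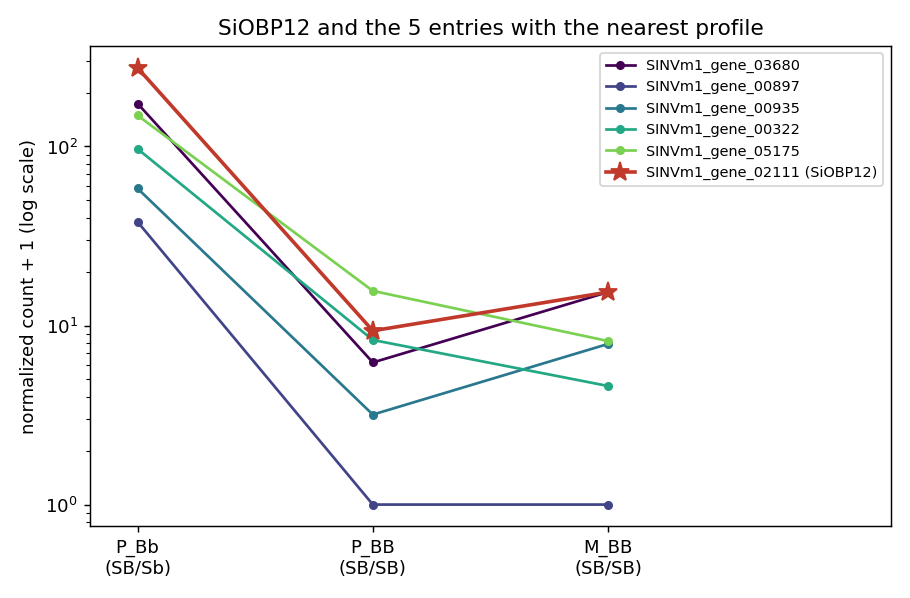
Normalized counts plus 1 (log scale) in P_Bb, P_BB and M_BB for *SiOBP12* (star) and the 5 SINVm1_gene entries with the nearest profile, 1 library per class, with lines joining values of 1 entry. All 6 are highest in P_Bb, which follows for the 5 from their choice by nearness to *SiOBP12*. SINVm1_gene_00897 has 0 expected counts in both *SB/SB* libraries.

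Of the other supergene genes that the study lists by genotype, none had a P_Bb to nearer library ratio as large as that of *SiOBP12*. Counting error did not separate SINVm1_gene_05175 from *SiOBP12* on that measure. The study chose that list on other aliquots of the same cDNA, so it is not independent of these libraries. On log2(normalized count + 1), the ratio was 3.26 for SINVm1_gene_05175, 2.13 for SINVm1_gene_05144, 1.17 for SINVm1_gene_05326, 0.38 for SINVm1_gene_05176 and -2.50 for SINVm1_gene_13984. The last had 2 reads in P_Bb, against 16 in P_BB and 15 in M_BB. The study lists all of these genes as higher in *SB/Sb*, the opposite of what SINVm1_gene_13984 showed here. Without a pseudocount, SINVm1_gene_05175 was 10.1-fold higher in P_Bb than in P_BB, its nearer library (interval 5.85 to 19.0). This overlapped the interval of *SiOBP12* over M_BB, its nearer library (19.1-fold, 11.5 to 33.9). Over M_BB, SINVm1_gene_05175 was at 20.6-fold (10.2 to 48.7), above *SiOBP12*. Over P_BB, *SiOBP12* was the higher, at 32.8-fold (16.4 to 76.9). SINVm1_gene_05144 had 161 normalized counts in P_Bb. At 4668 bases it reached 9.44 TPM in P_Bb, against 164 TPM for *SiOBP12*. The receptor entry SiOR463 had 13.3 TPM in P_Bb, against 17.0 TPM in P_BB and 14.2 TPM in M_BB. XLOC_016888, an identifier linked to the same receptor, was read 4 times in P_Bb, against 1 and 2 times in P_BB and M_BB, too few for the filter. The intervals of the P_Bb ratios of both entries included 1. For SiOR463 the ratio was 0.798 over P_BB (0.511 to 1.24) and 0.964 over M_BB (0.615 to 1.50). The study lists this receptor as lower in *SB/Sb*, a direction that a ranking by P_Bb ratio does not favour. It reports the receptor under XLOC_016888, while here SiOR463 was a separate entry beside it, so the values are not measured alike.

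Odorant receptors detect the odorants that odorant-binding proteins carry, and the receptor entries were compared with *SiOBP12* by level and by ratio. In P_Bb, 1 of the 473 receptor entries, SiOR1_co, had a higher TPM than *SiOBP12*. In P_BB 333 receptor entries did, and in M_BB 239 did. The median receptor entry had 10.1 TPM in P_Bb, against 10.99 TPM in P_BB and 8.97 TPM in M_BB. *SiOBP12* thus stood above the median receptor in P_Bb and below it in P_BB, while in M_BB its TPM interval included that median.

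No receptor entry shared the size of the *SiOBP12* ratio against both *SB/SB* libraries. Of the 370 receptor entries compared, 3 were at least 2-fold higher in P_Bb than in P_BB (SiOR415, SiOR425 and SiOR49) and 8 were at least 2-fold lower. These were 0.811% and 2.16% of the receptors, against 1.64% and 1.37% of all entries. Against M_BB, 19 receptor entries were at least 2-fold higher in P_Bb and 3 were lower (SiOR2, SiOR401 and SiOR269), or 5.14% and 0.811% against 2.13% and 2.26% of all entries. The median log2 ratio of receptors was -0.04 for P_Bb over P_BB and 0.20 for P_Bb over M_BB, beside 0.03 in each case over all entries compared. Between the *SB/SB* libraries, 17 receptor entries were at least 2-fold higher in P_BB than in M_BB and 1 was lower (4.59% and 0.27%, against 1.81% and 2.33% of all entries), with a median log2 ratio of 0.27. Receptor entries were thus more often higher than lower against M_BB in P_Bb and P_BB alike, in comparisons that share the M_BB library. The receptor entries at least 2-fold above both libraries in P_Bb were SiOR49 and SiOR425. SiOR49 stood at 30.9 normalized counts in P_Bb, against 11.5 in P_BB and 13.5 in M_BB, and SiOR425 at 17.2, 6.58 and 6.30 in that order. These receptors were named after their values were seen. How certain the division of reads was for the receptor entries counted here was not examined.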

How the data were processed

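Antennal cDNA of each worker class was amplified per colony, pooled over 4 colonies and sequenced. Per the file names, the authors used no strand information and mapped read pairs with Bowtie (named as Bowtie2 in the submitters' processing notes) to transcript sequences before RSEM estimated expression. Versions used for these 3 libraries are not given in the sources used here. The file names give 2 as the seed mismatch setting. The deposited expected counts and posterior mean counts (estimated counts) were not normalized. The deposited TPM and FPKM were made by RSEM, and so were the posterior standard deviation and the TPM interval, whose level is not stated.

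Depth, as the total expected count, was 3351500 in P_Bb, against 3421923 in P_BB and 3948464 in M_BB. Size factors came from the 75th percentile over all entries. The study names quantile normalization, and the percentile was chosen here. Ratios used no pseudocount unless the log2 scale is named, which adds 1 and understates low genes. The shares of entries at least 2-fold apart were all taken on that log2 scale. Poisson and Clopper-Pearson 95% intervals used counts rounded to whole numbers. Amplified reads without molecular identifiers are not independent molecules. The intervals treat them as independent and so may be too narrow even for counting error, the only error they cover. The floor of 3 counts is likewise in reads, not molecules. No test was run, since each class had 1 library. Ranks were taken over SINVm1_gene entries by TPM, and ties shared the better rank.

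The text names *SiOBP12*, its 5 nearest profiles, its neighbours in TPM, entries with a larger P_Bb ratio, and supergene genes of the study's genotype list. The gene and the lists were chosen with earlier results of these data known. Alternatives covered scaling (edgeR 4.0.16, DESeq2 1.42.0, library totals), unit, pseudocount, filter, threshold, thinning and posterior mean counts. The code was tested on simulated data. Of the 16511 reference names in the deposited transcript models on Si_gnH, 0 matched an identifier of the expression tables, and 0 SINVm1_gene identifiers matched the RefSeq table of UNIL_Sinv_3.0, so position, neighbouring genes and sequence were not analysed here. The deposited list of EBSeq patterns was not used.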

Additional observations from a re-analysis of the deposited data

How the results depend on the processing

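No paired analysis was possible because no class had replicates, which also prevented any leave-one-out comparison. Over 9 alternatives each, the *SiOBP12* ratio ranged from 20.9 to 33.1 for P_Bb over P_BB, from 14.4 to 19.1 for P_Bb over M_BB and from 0.536 to 0.689 for P_BB over M_BB, within the intervals reported. The lowest P_Bb ratios came with a pseudocount of 5, which shrinks low counts by construction. Ranked by normalized count in place of TPM, *SiOBP12* was at 2456 in P_Bb, because length is then not taken into account. By P_Bb ratio it stood at 1 with a pseudocount of 5, among entries with a mean of at least 100 counts (its own mean, 98.9, lies below that) and with posterior mean counts, an alternative chosen after seeing the data. It stood at 3 without the filter and at 2 with deposited TPM. Of the 5 nearest profiles, 3 were shared without the filter, since entries with few reads then enter, and 4 with posterior mean counts, where SINVm1_gene_00321 took the place of SINVm1_gene_00897. The number of entries at least 2-fold apart was 279 for P_Bb and P_BB, 406 for P_Bb and M_BB and 384 for P_BB and M_BB. In that order it was 1014, 1319 and 1272 at 1.5-fold, 40, 66 and 52 at 4-fold, 2785, 2479 and 2382 without the filter, and 5, 29 and 32 at 100 counts, all by construction. The 8 and 16 reads of the *SB/SB* libraries set the precision of every ratio.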

Other observations

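Among entries outside the official gene set, 3 came next to *SiOBP12* in the ratio of P_Bb to the nearer *SB/SB* library. They are transcript models of the assembly made for the reference and were named after their values were seen. The study already lists XLOC_001337 and XLOC_000436 as higher in *SB/Sb*, and annotates XLOC_000436 as a virus protein. XLOC_001337 stood at 142 normalized counts in P_Bb, against 4.17 in P_BB and 7.19 in M_BB, a log2 ratio of 4.12. XLOC_000436 had 124, 6.26 and 0 in that order (4.10), and XLOC_043228 had 81.0, 2.09 and 4.49 (3.90). Their posterior standard deviations were at most 0.06 reads in any library. The division of their reads was thus nearly certain, as it was for *SiOBP12*.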
